A study of Mus musculus with 21 samples.

Results

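The unfolded protein response and the integrated stress response are described here through 42 named genes measured in 21 mouse left ventricle samples. The genes are 14 ER chaperones and folding factors, 3 sensors and transcription factors of the unfolded protein response, 4 genes of ER-associated degradation, 8 transcription factors and feedback genes of the integrated stress response, 11 amino acid and one-carbon genes of the type that ATF4 controls, and Fgf21 with Vldlr. Of the 42 genes, 41 had a probe set annotated to that gene alone, which is the case for 19937 genes in all, and the probe set with the highest mean was used. Pycr1 had none. A further 3 genes, Psat1, Mthfd2 and Fgf21, did not reach a log2 value of 5 on 3 arrays, so that 38 members were among the 11384 genes tested. Members that pass through 1 group alone would have to differ, so the untested members are given by their values.

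MerCreMer mice carry a transgene, Tg(αMHC-MerCreMer), that expresses a tamoxifen-dependent Cre recombinase in cardiomyocytes from the α-myosin heavy chain promoter, and the labels give no floxed allele. These mice received intraperitoneal tamoxifen, an oestrogen receptor ligand, at 40 mg/kg on 1 day or on 4 consecutive days, or matched control injections, with 3 arrays in each of these 4 groups. Wild-type mice had 4 days of tamoxifen in 3 cases and 4 days of control injections in 6. All mice were 9 to 13 weeks old and were killed 4 days after treatment. Each group of 3 held 1 male (replicate 1) and 2 females, and the wild-type controls held 3 of each sex. The groups are called MCM 1 ctrl, MCM 1 TAM, MCM 4 ctrl, MCM 4 TAM, WT 4 ctrl and WT 4 TAM below, after genotype, days of injection and agent.

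As background, proteins that enter the endoplasmic reticulum (ER) are folded there by chaperones, and unfolded protein activates 3 sensors, IRE1 (gene Ern1), ATF6 and PERK (Eif2ak3). IRE1 splices the messenger of Xbp1, and XBP1 and ATF6 then switch on chaperone and degradation genes, among them Hspa5. PERK and other kinases phosphorylate the translation factor eIF2α, which lowers general translation but favours that of Atf4, and ATF4 with Atf5 and Ddit3 switches on genes of amino acid supply. Splicing, phosphorylation and translation do not show on an expression array, so only messenger levels are described. In the heart these pathways are known from pressure overload, ischaemia and mitochondrial disease, and in the last of these the ATF4-type genes can move without the chaperones.

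Each arm has a known promoter element, and the member windows that carry one are shown so that the letters can be set beside the array values. In the 250 bases before the start that each promoter window uses (RefSeq sequence, GRCm38.p6, 36 of the 42 members with a window, 3 of them with 2 windows), both strands were searched. The ER stress response element, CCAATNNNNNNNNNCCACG, was in 7 of 12 chaperone genes with a window and in Syvn1, against 35 of 27025 genes (0.13%), in 0 of the 2 sensor genes with a window, 0 of 7 factor and feedback genes and 0 of 9 amino acid genes. Each line below gives the gene, its place and strand, and the element in capitals with 8 bases on either side, 5′ to 3′ along the gene. The element lies on the other strand, and so reads as its reverse complement, in Calr, Creld2 and the second line of Hsp90b1. Both Hsp90b1 elements lie in the same promoter window, beginning 212 and 107 bases before the start.
Hspa5, chr2:34772017-34772051, + strand: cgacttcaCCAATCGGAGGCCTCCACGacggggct
Hsp90b1, chr10:86705630-86705664, - strand: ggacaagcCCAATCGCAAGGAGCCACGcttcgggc
Hsp90b1, chr10:86705525-86705559, - strand: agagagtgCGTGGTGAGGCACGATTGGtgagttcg
Calr, chr8:84847067-84847101, - strand: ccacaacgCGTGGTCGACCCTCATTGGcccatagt
Canx, chr11:50325792-50325826, - strand: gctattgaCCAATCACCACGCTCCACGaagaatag
Pdia6, chr12:17266483-17266517, + strand: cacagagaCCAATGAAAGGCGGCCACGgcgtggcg
Dnajc3, chr14:118937819-118937853, + strand: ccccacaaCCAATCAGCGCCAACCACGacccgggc
Creld2, chr15:88819512-88819546, + strand: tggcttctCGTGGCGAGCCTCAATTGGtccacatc
Syvn1, chr19:6046524-6046558, + strand: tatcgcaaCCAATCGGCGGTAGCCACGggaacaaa

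The core of the C/EBP-ATF element, TGATGNAA, which ATF4 dimers bind, was in 0 of the 12 chaperone genes with a window and in 8 of 36 members (22.2%), against 1056 of 27025 genes (3.91%). The 8 were the degradation gene Herpud1, 2 of the 7 factor and feedback genes (Nupr1 and Chac1), 3 of the 9 amino acid genes (Asns, Pycr1 and Pck2), Fgf21 and Vldlr, so that most factor and amino acid genes held neither element in these windows. The longer form TGATGNAAT, which contains the core, was in Nupr1, Pycr1 and Fgf21 of the members and in 246 genes (0.91%). A match is a description of the letters in these windows and not a measured binding site. The 7 windows below are those of the genes that have array values, which leaves out Pycr1. The element reads as its reverse complement in each of them but Asns. The Vldlr element lies inside the annotated gene, which begins at chr19:27216480, and comes before a later start of that gene.
Asns, chr6:7693217-7693240, - strand: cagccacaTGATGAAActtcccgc
Herpud1, chr8:94386309-94386332, + strand: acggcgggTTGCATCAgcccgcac
Chac1, chr2:119351041-119351064, + strand: ccctgccgTTGCATCActcctgcc
Nupr1, chr7:126625565-126625588, - strand: gggccagaTTGCATCAgacagggc
Pck2, chr14:55540155-55540178, + strand: cttcaaagTTACATCAgtatctta
Fgf21, chr7:45615614-45615637, - strand: cccccccaTTGCATCAtccgtcca
Vldlr, chr19:27216812-27216835, + strand: agcaatagTTGCATCAgcgctcct

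All values are log2 expression after RMA, and changes are differences on that scale with the standard error (SE) of a limma model in which all 21 arrays share 1 estimate of the spread. MCM 4 TAM was the most variable group, with a residual variance of 0.106 against 0.0153 to 0.0232 in the other 5 groups, and its arrays correlated at 0.9715 to 0.9841 over all probe sets, where the lowest value elsewhere was 0.9852. Within it replicate 3, a female, stood apart. That array held the highest of the 21 values for 24.1% of all genes tested and the lowest for 26.9%. Results that rest on it are given with and without it. The labels do not say that each sample came from a separate animal, so p-values measure the spread between these samples. In whole ventricle, fewer cells of a type and less RNA per cell cannot be told apart.

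The main comparison asked what 4 tamoxifen injections changed in MerCreMer ventricles. Of the 38 members 7 were called at a limma adjusted p under 0.05, which is 18.4%, against a background of 23.3% of all genes tested (2654 of 11384), so that the members were not called more often than genes at large. The members that rose were Slc7a5, Aldh18a1, Atf4 and Atf5, and those that fell were Vldlr, Cth and Shmt2. The background was 13.9% for genes called higher and 9.41% for genes called lower. All 7 calls lay among the integrated stress response factors, the amino acid genes and Vldlr, and 0 of the 14 ER chaperones was called. The median change of the 38 members was 0.21 and that of all genes tested 0.01. Without MCM 4 TAM replicate 1, 2 or 3 the number of the 38 members called was 12, 17 and 6. The share of all genes tested that was called also moved, to 29.9%, 33.8% and 16.5% in turn. With the spread taken from only the 6 arrays compared, 0 members and 18 genes in all were called, against 7 and 2654 in the fit to all arrays. Without adjustment, 14 members (36.8%) and 4220 of all genes tested (37.1%) had a limma p under 0.05 in the fit to all arrays.

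**Figure D1:**
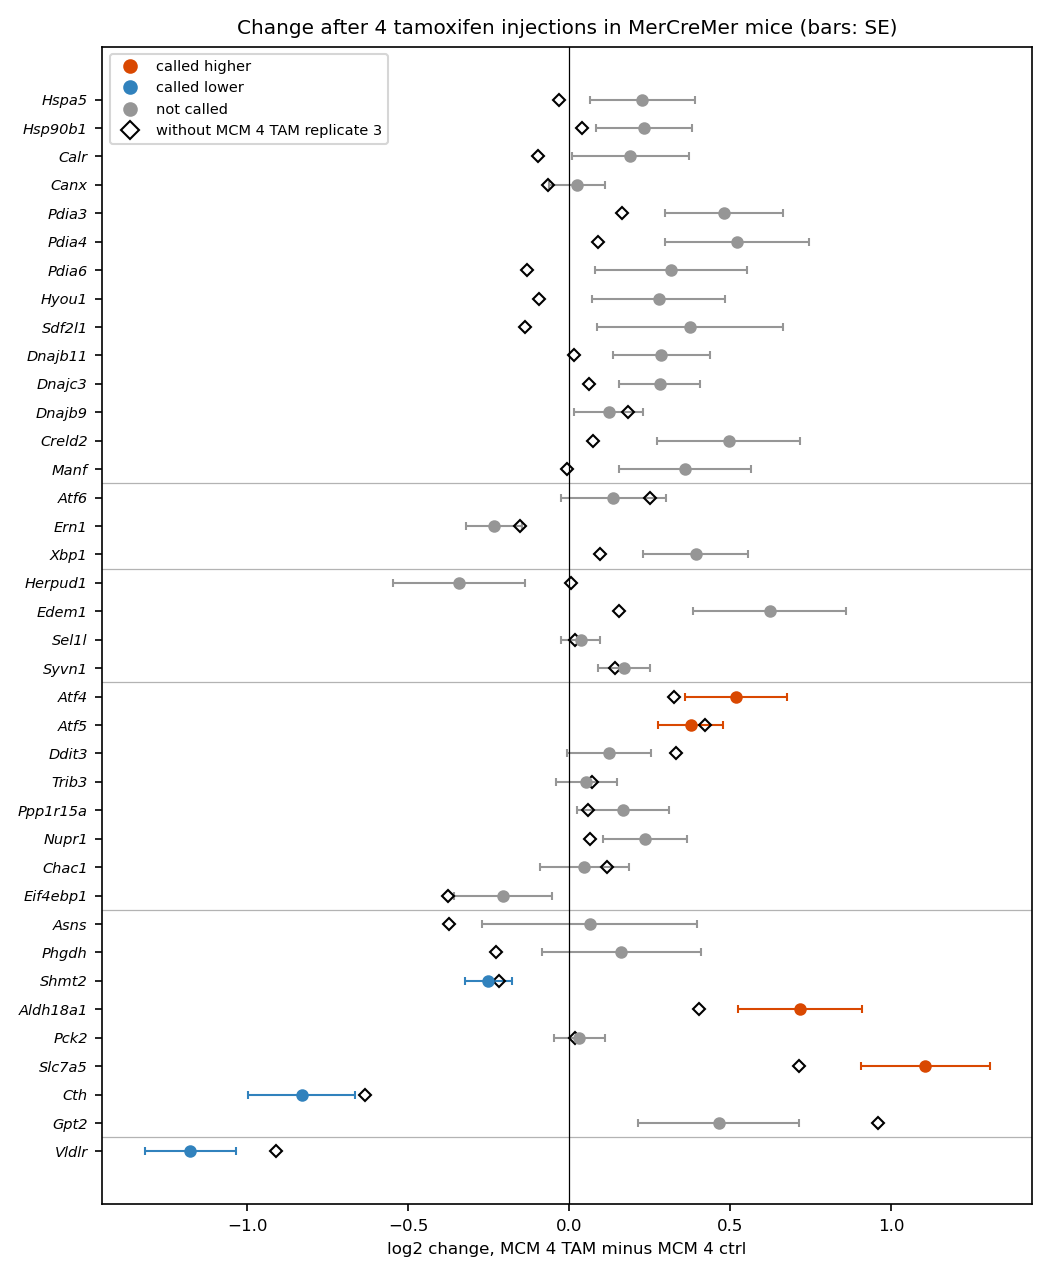
Log2 change of the 38 tested members after 4 tamoxifen injections in MerCreMer mice (x axis, MCM 4 TAM minus MCM 4 ctrl, 3 arrays each), one row per gene in blocks by role, with bars for the SE and open diamonds for the change without MCM 4 TAM replicate 3. The 14 chaperones at the top all lie right of 0 with all arrays, and their diamonds scatter around 0, while the diamonds of Slc7a5, Cth and Vldlr stay at 0.71, -0.63 and -0.91.

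The ER chaperones and folding factors differed by array rather than by group. Each array was set against the mean of its matched control group, and control arrays against the mean of their own group. The median difference of the 14 genes was 0.07 and -0.00 on MCM 4 TAM replicates 1 and 2 and 0.91 on replicate 3. It lay between -0.19 and 0.20 on the other 18 arrays. Replicate 3 was the highest of the 21 arrays for 12 of the 14 genes. All 14 changes were positive with all arrays, from 0.02 to 0.52 with a median of 0.28, and limma adjusted p lay between 0.0669 and 0.875. Without replicate 3 the median change was 0.00 and 0 genes were called, and 7 of the 14 changes turned negative. Without replicate 1 or replicate 2, which leaves replicate 3 with 1 other array, 3 and 6 of the 14 were called higher. Of all genes tested 14.8% and 19.7% were called higher in these 2 settings.

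Hspa5 encodes BiP, the main Hsp70 chaperone of the ER and the usual readout of the unfolded protein response. It measured 10.35, 10.49 and 9.96 in MCM 4 ctrl and 10.38, 10.14 and 10.96 in MCM 4 TAM. Replicates 1 and 2 after tamoxifen lay inside the control range and replicate 3 above it. The change was 0.23 (SE 0.164, limma adjusted p = 0.333), and -0.03 without replicate 3. Hsp90b1, the ER form of Hsp90, measured 10.17, 10.50 and 10.04 in the controls and 10.26, 10.32 and 10.83 after tamoxifen.

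Pdia4, a protein disulphide isomerase, measured 7.53, 7.78 and 7.38 in MCM 4 ctrl and 7.65, 7.64 and 8.95 in MCM 4 TAM, while the other 18 arrays reached at most 7.82. Pdia6, of the same enzyme family, measured 8.44, 8.69 and 8.30 against 8.48, 8.22 and 9.66. Pdia3, which pairs with the lectin chaperones, had the lowest adjusted p of the group, with 9.46, 9.68 and 9.43 in the controls and 9.66, 9.71 and 10.63 after tamoxifen. In all 3 isomerases replicate 3 was the highest of the 21 arrays. Their changes were 0.52, 0.32 and 0.48 with all arrays and 0.09, -0.13 and 0.17 without it.

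Sdf2l1, a partner of BiP and its J proteins, measured 6.45, 6.58 and 6.13 in MCM 4 ctrl and 6.24, 6.24 and 7.79 in MCM 4 TAM. Creld2, an ER resident protein that is strongly induced by ER stress, measured 6.79, 6.95 and 6.45 against 6.97, 6.65 and 8.06. In both genes the high array is again replicate 3, and the control and treated groups overlap. Manf, a secreted stress protein, measured 5.94, 6.27 and 5.70 against 5.92, 6.02 and 7.06, and Hyou1, a nucleotide exchange factor of BiP, 7.60, 7.72 and 7.34 against 7.44, 7.49 and 8.57.

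The calreticulin and calnexin lectin chaperones differed from each other on replicate 3. Calr measured 9.61, 9.29 and 10.25 after tamoxifen against 9.46, 9.85 and 9.27 in the controls, whereas Canx measured 10.28, 10.45 and 10.63 against 10.40, 10.45 and 10.44. Among the J protein cochaperones of BiP, Dnajb11 and Dnajc3 reached 8.52 and 8.92 on replicate 3, above every other array. Dnajb9 did not, with 8.41, 8.22 and 8.12 after tamoxifen against 8.14, 8.12 and 8.13 in the controls. Canx and Dnajb9 had the smallest changes of the group, 0.02 and 0.12.

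**Figure D2:**
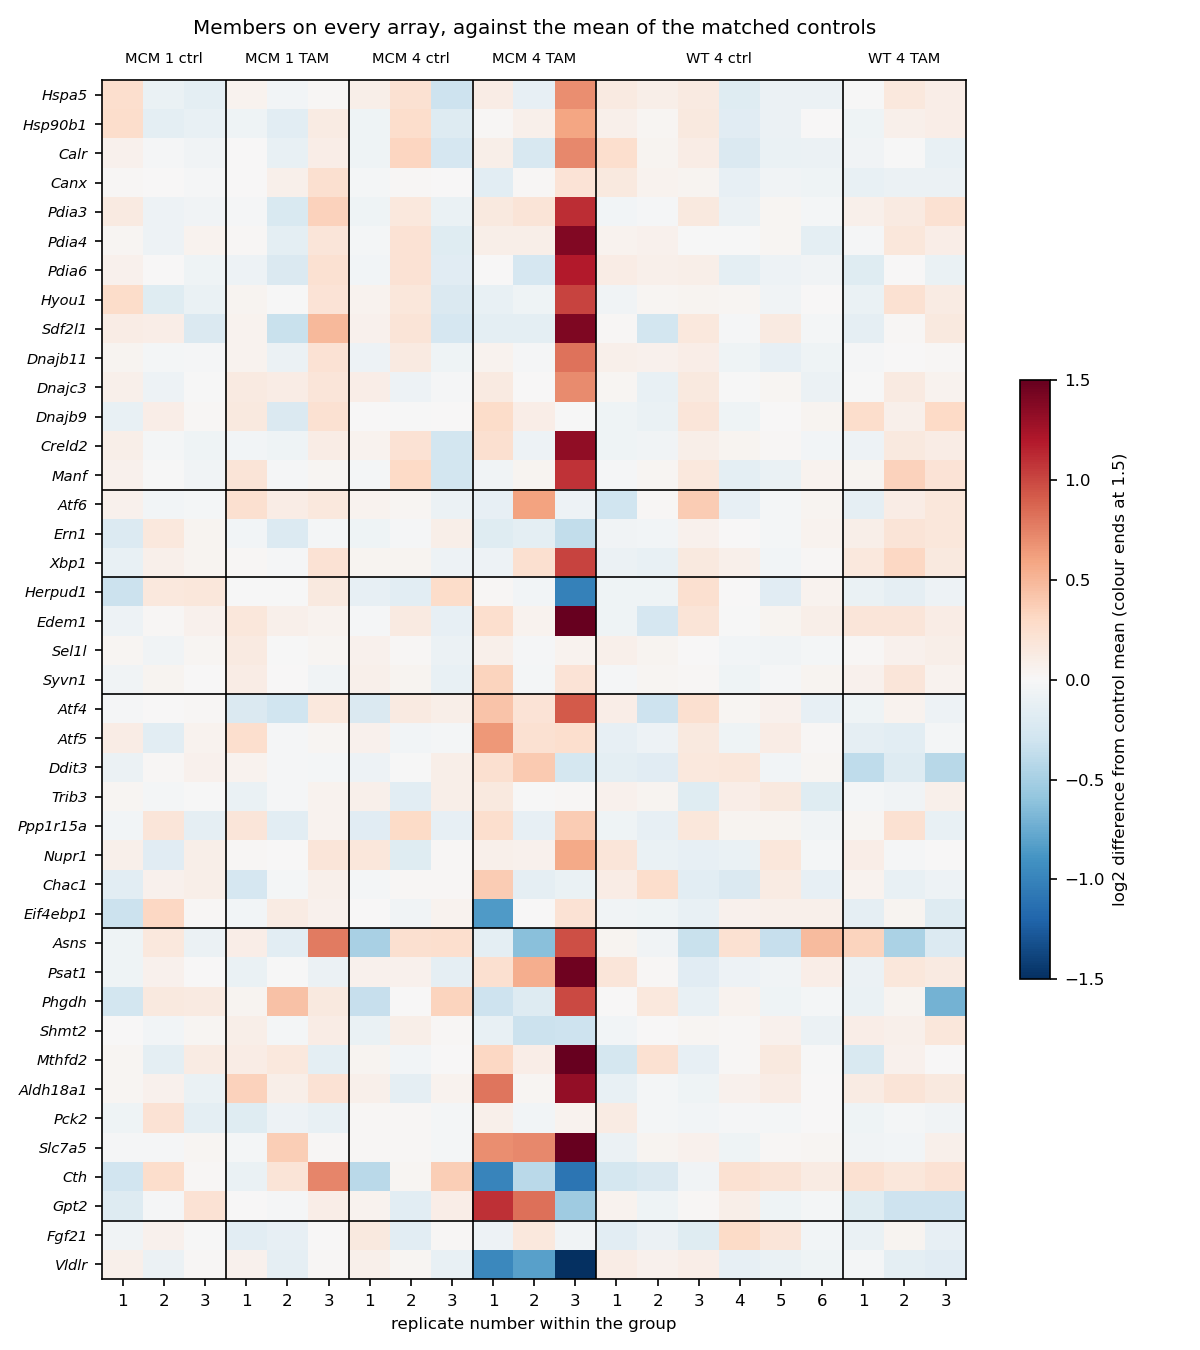
The 41 members with a probe set (rows, in blocks by role) on all 21 arrays (columns, by group and replicate), coloured by log2 difference from the mean of the matched control group, with the colour scale ending at 1.5. Most of the chaperone block is dark on MCM 4 TAM replicate 3 alone, while Slc7a5 and Vldlr are coloured on all 3 MCM 4 TAM arrays.

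Of the sensors and XBP1, 0 of 3 was called. Xbp1 measured 8.37, 8.37 and 8.26 in MCM 4 ctrl and 8.26, 8.57 and 9.35 in MCM 4 TAM, a change of 0.39 (SE 0.163, limma adjusted p = 0.088) that became 0.10 without replicate 3. Ern1, which encodes the sensor IRE1, measured 6.17, 6.22 and 6.34 in the controls and 6.06, 6.10 and 5.87 after tamoxifen, groups that did not overlap. Its change was -0.23 (SE 0.0864, limma adjusted p = 0.0576). Atf6 measured 8.12, 8.84 and 8.17 after tamoxifen against 8.30, 8.27 and 8.15, with replicate 2 as the high array, and its change of 0.14 became -0.10 without that replicate. No shared direction was seen for the 3 genes.

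Of the 4 ER-associated degradation genes, which remove misfolded proteins for destruction, 0 was called. Edem1, which extracts misfolded glycoproteins, measured 6.20, 6.36 and 6.10 in MCM 4 ctrl and 6.47, 6.27 and 7.78 in MCM 4 TAM. Its change of 0.62 (SE 0.238, limma adjusted p = 0.0657) fell to 0.15 without replicate 3. Herpud1, a partner of the ubiquitin ligase of the ER membrane, went the other way on that array, with 10.53, 10.47 and 9.49 after tamoxifen against 10.39, 10.35 and 10.79. The value of 9.49 is the lowest of the 21 arrays, so replicate 3 combined high chaperones with low Herpud1. Sel1l and Syvn1, the adaptor and the ligase themselves, had changes of 0.04 and 0.17, and Syvn1 measured 6.84, 6.47 and 6.71 against 6.58, 6.55 and 6.39.

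Among the 8 factors and feedback genes of the integrated stress response, 2 rose (25.0%) and 0 fell. Of all genes tested 13.9% rose and 9.41% fell, 23.3% in all, so the share called here was near that of all genes. Atf4, its central transcription factor, measured 6.69, 7.04 and 7.002 in MCM 4 ctrl and 7.34, 7.11 and 7.83 in MCM 4 TAM. The treated arrays all lay above the controls, and above the WT 4 ctrl arrays, which ran from 6.54 over a median of 6.90 to 7.09. Atf4 rose by 0.52 (SE 0.159, limma adjusted p = 0.0263), but the call was lost without MCM 4 TAM replicate 3 (0.33), without MCM 4 ctrl replicate 1 (0.42) and without MCM 4 ctrl replicate 3 (0.55). Atf5, a related factor with mitochondrial targets, measured 7.41, 7.30 and 7.31 in the controls and 7.99, 7.57 and 7.60 after tamoxifen. It rose by 0.38 (SE 0.101, limma adjusted p = 0.0131), and by 0.42 without replicate 3, and it was the highest on replicate 1, without which the change was 0.26 and not called. Atf4 and Atf5 were thus highest on different arrays.

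Ddit3, which encodes the factor CHOP, measured 5.84, 5.90 and 5.997 in MCM 4 ctrl and 6.16, 6.30 and 5.65 in MCM 4 TAM. Replicates 1 and 2 lay above all controls and replicate 3 below them. The change was 0.12 (limma adjusted p = 0.519), and without replicate 3 it was 0.33 and called (limma adjusted p = 0.0255). The Ddit3 values therefore ran opposite to the chaperones across the treated arrays.

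The feedback genes downstream of ATF4 and CHOP were not called, and in each of the 5 at least 1 treated array lay outside the MCM 4 ctrl range. Trib3, a pseudokinase that restrains ATF4, measured 5.61, 5.45 and 5.47 after tamoxifen against 5.53, 5.29 and 5.54. Chac1, an enzyme that degrades glutathione, measured 6.19, 5.68 and 5.71 against 5.78, 5.83 and 5.83, high on replicate 1 alone. Nupr1, a stress-induced nuclear protein, measured 5.22, 5.21 and 5.71 against 5.31, 4.96 and 5.16, and replicate 3 was the highest of the 21 arrays. Its change was 0.23, and that of Ppp1r15a, the subunit that directs the eIF2α phosphatase, 0.17, neither past the threshold. Eif4ebp1, an inhibitor of cap-dependent translation, measured 7.52, 8.37 and 8.58 against 8.36, 8.31 and 8.41, with replicate 1 as the low array.

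**Figure D3:**
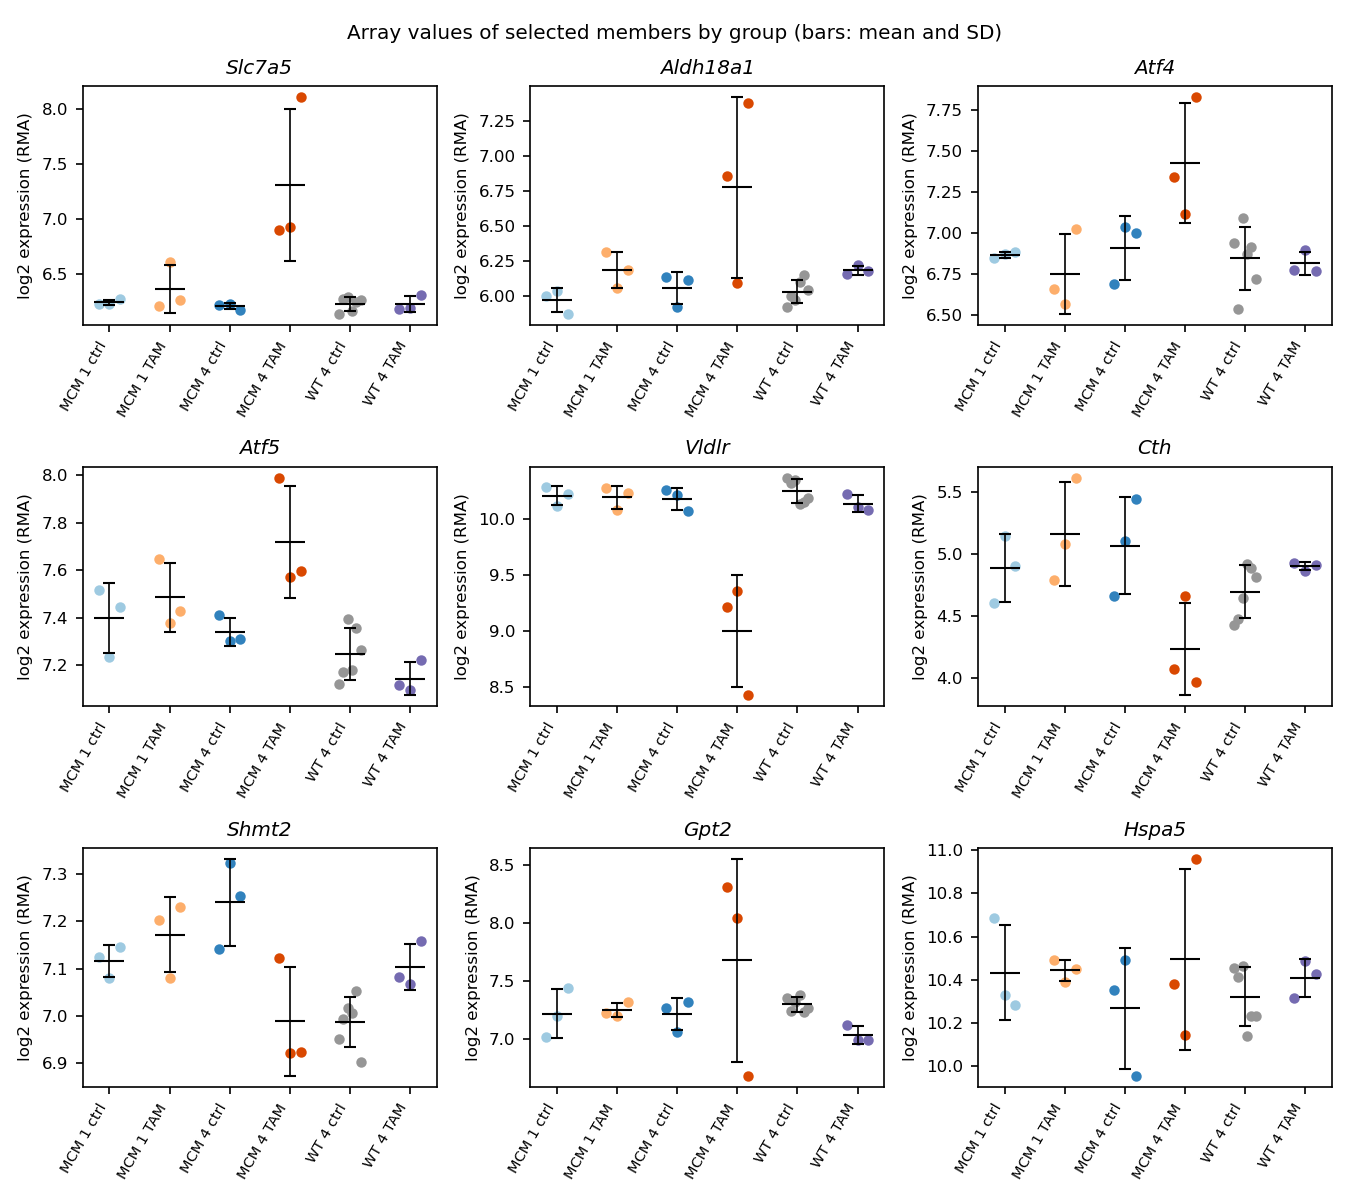
Log2 expression (y axis, RMA, own scale in each panel) of 9 members on every array in the 6 groups (x axis), with bars for the mean and SD of each group. Slc7a5 and Vldlr on the 3 MCM 4 TAM arrays lie outside the range of the other 18 arrays, Gpt2 is high on 2 and low on 1 of them, and Hspa5 is high on 1.

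The amino acid and one-carbon genes moved in both directions. Of the 11, 8 were tested, and of these 2 rose (25.0%) and 2 fell (25.0%). Of all genes tested 13.9% rose and 9.41% fell. The other 4 did not pass the test, and the median change of the 8 was 0.11. Slc7a5, the light chain of the LAT1 transporter for leucine and other large neutral amino acids, had the largest rise of all members. It measured 6.22, 6.23 and 6.18 in MCM 4 ctrl and 6.90, 6.93 and 8.11 in MCM 4 TAM, while the other 18 arrays lay between 6.14 and 6.62. All treated arrays were above every other array. Its mean went from 6.21 ± 0.0269 to 7.32 ± 0.692 (SD, n = 3 each), a rise of 1.11 or 2.15-fold (SE 0.200, limma adjusted p = 0.000884). Without replicate 3 the rise was 0.71, and the call was kept with each of the 6 arrays left out in turn.

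Aldh18a1, the first enzyme of proline synthesis, measured 6.14, 5.93 and 6.11 in MCM 4 ctrl and 6.86, 6.09 and 7.38 in MCM 4 TAM. Replicate 2 lay inside the control range, so the groups overlapped. The rise was 0.72 (SE 0.193, limma adjusted p = 0.0135), and it was not called without MCM 4 TAM replicate 3 (0.40) or without MCM 4 ctrl replicate 2 (0.65).

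Gpt2, the mitochondrial alanine aminotransferase, lay on both sides of its controls after tamoxifen. It measured 7.26, 7.06 and 7.32 in MCM 4 ctrl and 8.31, 8.04 and 6.68 in MCM 4 TAM, against 6.99 to 7.44 on the other 18 arrays. Replicates 1 and 2 lay above, and replicate 3 below, all of these 18. The change was 0.46 (SE 0.250, limma adjusted p = 0.187) with all arrays and 0.96 without replicate 3 (limma adjusted p = 1.11e-05). Gpt2 and Ddit3 thus had the same array pattern, high on replicates 1 and 2 and low on replicate 3.

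Of the serine and folate enzymes, Shmt2, the mitochondrial serine hydroxymethyltransferase, measured 7.14, 7.32 and 7.25 in MCM 4 ctrl and 7.12, 6.92 and 6.92 in MCM 4 TAM. The groups did not overlap, and Shmt2 fell by 0.25 (SE 0.0726, limma adjusted p = 0.0198). The call was lost without MCM 4 TAM replicate 3, MCM 4 ctrl replicate 2 or MCM 4 ctrl replicate 3, where the change was -0.22, -0.205 and -0.24. The treated values lay within the WT 4 ctrl range of 6.90 to 7.05 for replicates 2 and 3, while MCM 4 ctrl lay above it.

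The other serine and folate genes were near the lower end of the scale. Phgdh, the first enzyme of serine synthesis, measured 4.75, 4.87 and 6.05 after tamoxifen against 4.72, 5.07 and 5.40. Psat1, the next enzyme, measured 4.85, 5.15 and 6.07 against 4.67, 4.67 and 4.47, and Mthfd2, the mitochondrial folate enzyme, 4.995, 4.78 and 6.64 against 4.72, 4.64 and 4.69. Both of the latter were below the filter and went into no test, and both were highest on replicate 3, as was Phgdh. With no filter Psat1 was called, at 0.75, and Mthfd2 was not, at 0.79.

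Asns, asparagine synthetase and a standard ATF4 target, measured 5.28, 6.01 and 6.02 in MCM 4 ctrl and 5.62, 5.14 and 6.73 in MCM 4 TAM. Its change was 0.06 (SE 0.333, limma adjusted p = 0.915), and it became -0.38 without replicate 3. Its arrays in WT 4 ctrl ran from 5.28 to 6.09, so the spread of Asns was wide without tamoxifen too. Pck2, the mitochondrial enzyme that makes phosphoenolpyruvate, stayed between 6.24 and 6.35 on the treated arrays, with a change of 0.03.

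Cth, cystathionine γ-lyase, which makes cysteine from cystathionine, fell. It measured 4.66, 5.10 and 5.44 in MCM 4 ctrl and 4.08, 4.66 and 3.97 in MCM 4 TAM, and reached a log2 value of 5 on 5 of the 21 arrays. WT 4 ctrl ran from 4.43 to 4.92, with MCM 4 TAM replicate 2 inside that range and replicates 1 and 3 below it. The mean was 5.07 in MCM 4 ctrl and 4.695 in WT 4 ctrl. The lowest MCM 4 ctrl value and the highest treated value were nearly equal. Against MCM 4 ctrl the change was -0.83 (SE 0.167, limma adjusted p = 0.002), or -0.63 without replicate 3. At this level the size of the change is measured near the lower end of the scale.

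Vldlr, the very low density lipoprotein receptor, which takes up lipid-rich particles in muscle, had the largest change of all members. It measured 10.26, 10.21 and 10.07 in MCM 4 ctrl and 9.21, 9.36 and 8.43 in MCM 4 TAM. The other 18 arrays lay between 10.07 and 10.36, so all 3 treated arrays were below every other array. Vldlr fell by 1.18 to 0.442 of its control level (SE 0.142, limma adjusted p = 2.33e-05), and by 0.91 without replicate 3. In cultured cells and liver Vldlr is known as an ATF4-linked gene that rises with ER stress, and here it moved opposite to Atf4. Fgf21, a secreted hormone that ATF4 induces, measured 4.08, 3.78 and 3.95 in MCM 4 ctrl and 3.86, 4.09 and 3.88 in MCM 4 TAM, and did not reach 5 on any of the 21 arrays.

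Across the main comparison 7 members had groups that did not overlap (Atf4, Atf5 and Slc7a5 higher; Ern1, Shmt2, Cth and Vldlr lower), against 27.9% of all genes tested. The 7 are 18.4% of the 38, a lower share than that of all genes, and Aldh18a1 was called with overlapping groups.

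Other genes of the same pathways were taken from lists chosen with earlier results of these data known. Their shares are set beside the 13.9% of all genes that rose and the 9.41% that fell, or, without MCM 4 TAM replicate 3, 10.7% and 5.77%. Among 28 further ER folding and oxidation genes 8 rose (28.6%) and 0 fell (median 0.22), 5 rose without replicate 3 (17.9%), and with single arrays left out the number higher ran from 4 to 19. Ero1a, the oxidase that recharges the disulphide isomerases, rose by 0.85 (SE 0.127, limma adjusted p = 0.00016) and by 0.73 without MCM 4 TAM replicate 3. It measured 6.95, 6.87 and 6.87 in the controls and 7.27, 7.94 and 8.04 after tamoxifen, so all treated arrays were higher, unlike most chaperone members. Hspa13, an ER-associated Hsp70 relative, rose by 0.59, Fkbp14, a prolyl isomerase of the ER, by 0.68 and Cnpy2 by 0.31, each also called with any 1 of the 6 arrays left out.

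Of 22 further ER-associated degradation genes 5 rose (22.7%) and 0 fell (4 to 9 higher with single arrays left out). Of all genes tested 13.9% rose and 23.3% were called in either direction. Without MCM 4 TAM replicate 3, 5 of the 22 rose (22.7%), against 10.7% of all genes. Vcp, the ATPase that pulls proteins out of the ER membrane, rose by 0.36, with 10.42, 10.52 and 10.51 after tamoxifen against 10.15, 10.06 and 10.18. Its cofactor Nploc4 rose by 0.40, Ubxn4, which anchors it at the ER, by 0.60 and Edem3, a relative of Edem1, by 0.42. These 4 changes were 0.34, 0.46, 0.51 and 0.36 without replicate 3 for Vcp, Nploc4, Ubxn4 and Edem3, so they did not rest on that array.

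Of 35 genes for translocation into and export from the ER 13 rose (37.1%) and 0 fell, with 5 to 21 higher when single arrays were left out and 7 (20.0%) without replicate 3. The coat proteins of export vesicles Sec23a, Sec23b and Sec31a rose by 0.43, 0.75 and 0.35, and Stt3a, the catalytic subunit of oligosaccharyl transferase, by 0.68. Without replicate 3 these changes were 0.38, 0.49, 0.22 and 0.32 and remained called.

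Among 17 other sensors, kinases and phosphatases of the pathways 5 rose (29.4%) and 0 fell, and without replicate 3 the number was 1 (5.88%). Creb3, an ER membrane-bound transcription factor, rose by 0.66, with 8.02, 7.91 and 8.89 against 7.60, 7.59 and 7.65. Eif2ak3, which encodes PERK, rose by 0.22 (SE 0.0658, limma adjusted p = 0.026), but was not called without MCM 4 TAM replicate 3 (0.18), MCM 4 ctrl replicate 1 (0.18) or MCM 4 ctrl replicate 3 (0.22).

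The cytosolic aminoacyl-tRNA synthetases, which charge transfer RNAs and include known ATF4 targets, had the highest share of calls among these lists, with 12 of 18 higher (66.7%) and 0 lower (median 0.29, all 18 changes at or above 0). Without replicate 3 the median was 0.21 and 3 of 18 rose (16.7%). Of all genes on those arrays 10.7% rose and 16.5% were called in either direction. Over all single arrays left out the number of synthetases that rose ran from 3 to 13. Nars measured 9.01, 8.96 and 9.01 in MCM 4 ctrl and 9.36, 9.35 and 9.69 in MCM 4 TAM, a rise of 0.48 (SE 0.0787, limma adjusted p = 0.000416) that was 0.36 without replicate 3. Tars and Rars rose by 0.40 and 0.46 and stayed called with any 1 array left out. The medians of the 18 synthetases on MCM 4 TAM replicates 1, 2 and 3 were 0.26, 0.09 and 0.45 above the MCM 4 ctrl mean. On the other 18 arrays, each set against its matched control group, they were -0.04 to 0.05.

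Of 9 other amino acid transporters 2 rose (22.2%) and 0 fell, and 1 to 3 rose with single arrays left out. Slc3a2, the heavy chain that carries Slc7a5 to the membrane, rose by 1.04 (SE 0.159, limma adjusted p = 0.000204). It measured 8.70, 8.84 and 8.94 in the controls and 10.26, 9.28 and 10.07 after tamoxifen, and its change without replicate 3 was 0.94. Both chains of the LAT1 transporter were thus higher on all 3 treated arrays. Slc1a5, a glutamine transporter, rose by 0.40, a call that was lost without MCM 4 TAM replicate 3 (0.21) and without each of the 3 control arrays (0.39 to 0.41).

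Of 17 other genes linked to ATF4 and CHOP 4 rose and 1 fell, 29.4% in all (2 to 6 and 1 to 4 with single arrays left out). Atf3, a stress-induced factor of the same family, rose by 1.73 (SE 0.234, limma adjusted p = 6.71e-05), with 6.53, 6.72 and 7.83 after tamoxifen against 5.34, 5.38 and 5.16. Sqstm1, the autophagy receptor p62, rose by 0.45, and Stc2, a secreted glycoprotein, fell by 0.70. Of 13 other serine, one-carbon and amino acid genes 0 rose and 2 fell (15.4%, 0 to 1 higher and 1 to 4 lower with single arrays left out), with Aldh1l1, a cytosolic folate enzyme, at -0.59. Of 16 mitochondrial chaperones and proteases 0 rose and 2 fell (12.5%, median -0.10, 1 to 6 lower with single arrays left out), with Spg7, a protease of the inner membrane, at -0.44 and Phb2 at -0.28. The call of Phb2 was lost without MCM 4 ctrl replicate 2 (-0.23).

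Markers of other cell types moved with these results. Of 13 macrophage and monocyte markers tested 13 rose (11 to 13 with single arrays left out), with a median change of 1.02. Mean levels here cover all markers with a probe set, tested or not. For the 14 such macrophage markers the mean log2 level was 6.28 to 6.34 over the MCM 4 ctrl arrays. It was 7.22, 6.68 and 8.20 on MCM 4 TAM replicates 1, 2 and 3. Of 9 fibroblast markers tested 1 rose (0 to 5 with single arrays left out). The mean level of the 10 with a probe set was 8.22, 8.19 and 9.29 on the same arrays against 8.03 to 8.19 in the controls. Replicate 3 was thus the highest array for the chaperone, macrophage and fibroblast lists alike, and replicate 1 was above its controls for the macrophage markers but not for the chaperones. The 10 cardiomyocyte markers, which define the tissue, averaged 12.10, 12.18 and 11.75 on those 3 arrays and 12.15 to 12.17 on the MCM 4 ctrl arrays. Of 8 endothelial markers 3 fell (1 to 7 with single arrays left out).

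Of the 3 atrial markers tested, genes expressed mainly in atrial muscle, the myosin light chain gene Myl7 fell by 3.77 (SE 1.11, limma adjusted p = 0.0211), a call lost without MCM 4 ctrl replicate 1 (-3.28). Myl4 was at -2.11 and Nppa at 1.02, neither of them called. The mean level of the 5 atrial markers with a probe set was 6.90 to 7.18 in MCM 4 ctrl, 5.45 to 6.17 in MCM 4 TAM and 5.03 to 6.39 in WT 4 ctrl. These 5 include Sln and Bmp10, which were below 5 on every array. Of 6 smooth muscle and pericyte markers tested Cspg4 rose by 0.50 (SE 0.124, limma adjusted p = 0.00804). The mean level of the 7 with a probe set was 7.82, 7.54 and 8.5 on the treated arrays against 7.51 to 7.67. These genes were named after their values were seen. The 7 neutrophil markers and the 4 adipocyte markers with a probe set were below 5 on every array. Of 4 T cell markers with a probe set Cd3d, Cd3g and Cd2 were too, while Cd3e reached 5 on at least 1 array. Of 7 B and plasma cell markers with a probe set, all but Mzb1 stayed below 5 on every array. Mzb1 was tested, with a change of -0.07 that was not called. What part these cells had in the member values was not tested.

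**Figure D4:**
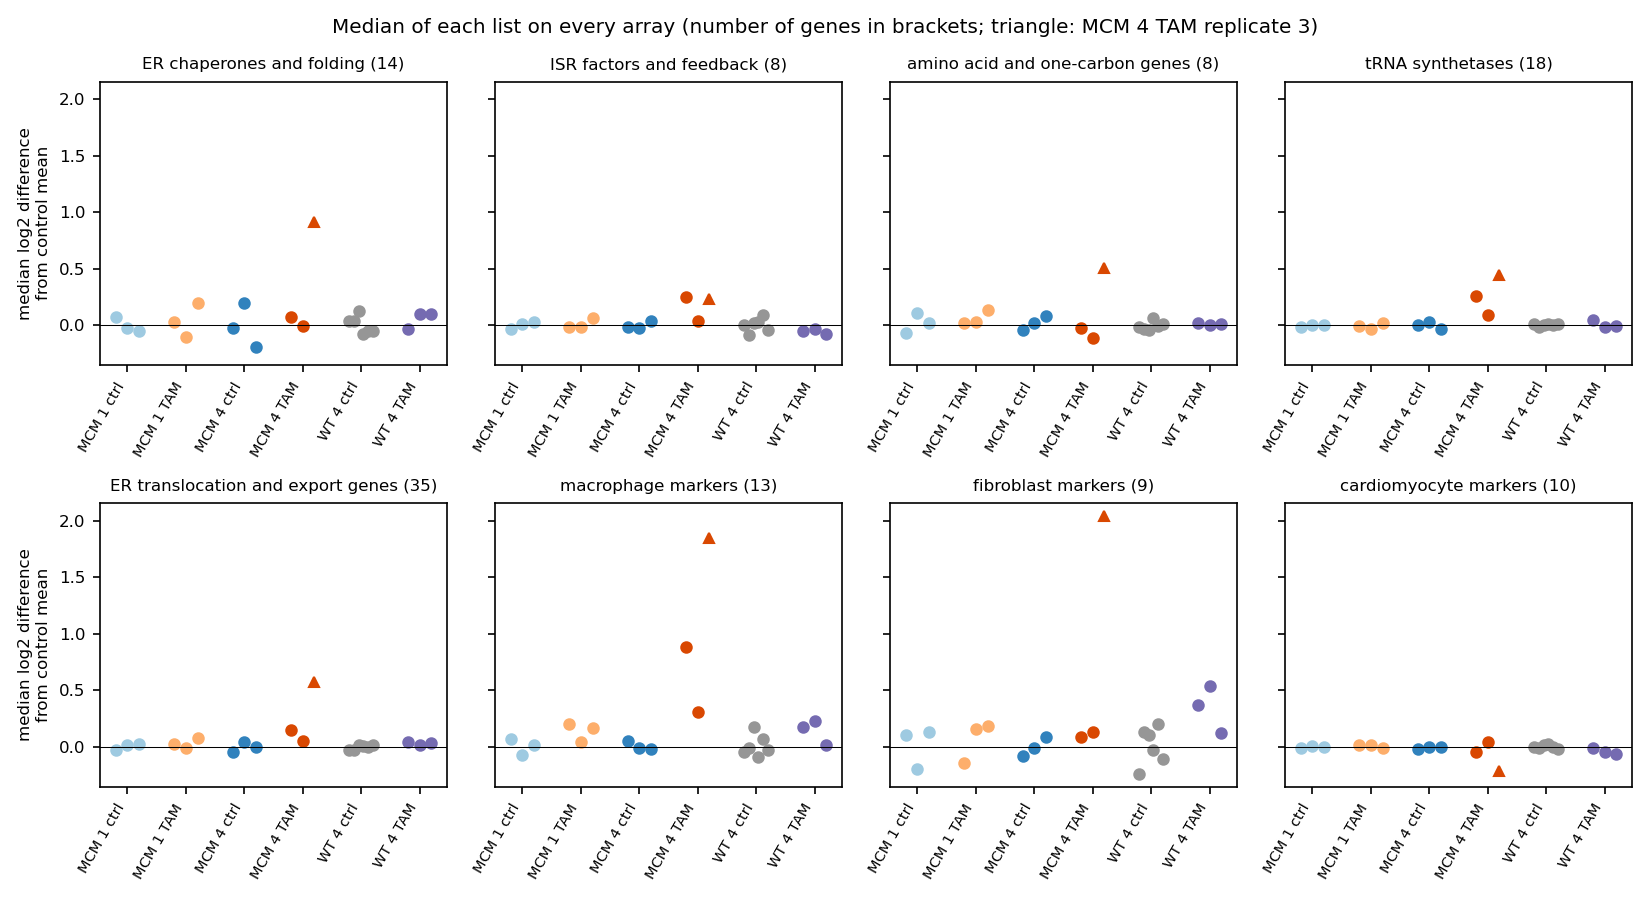
Median log2 difference from the mean of the matched controls (y axis) for 8 gene lists on each of the 21 arrays, by group (x axis), with the number of genes tested in brackets and a triangle for MCM 4 TAM replicate 3. The chaperone median is high on the triangle alone, at 0.91. The fibroblast median is 2.04 on the triangle, and 0.37, 0.53 and 0.12 on the 3 WT 4 TAM arrays. The macrophage medians are 0.88, 0.31 and 1.85 on the 3 MCM 4 TAM arrays.

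The second comparison asked whether 1 day of tamoxifen changed the members in MerCreMer mice. The limma fit called 0 of 38, against 0.00878% of all genes tested (1 gene), and 0 members had an unadjusted p under 0.05, against 380 of all genes (3.34%). The chaperones changed by -0.03 to 0.14, with a median of 0.04. Slc7a5 measured 6.23, 6.23 and 6.27 in MCM 1 ctrl and 6.21, 6.62 and 6.27 in MCM 1 TAM, 1 array above the controls. Vldlr measured 10.28, 10.12 and 10.22 against 10.27, 10.08 and 10.22, and Atf4 6.85, 6.87 and 6.88 against 6.66, 6.57 and 7.03. The other pathway lists had 0 genes called as well.

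The third comparison asked what the same 4 tamoxifen injections did in wild-type mice. The limma fit called 0 of 38 members, against 0% of all genes tested, and 2 members (5.26%) had an unadjusted p under 0.05, against 295 of all genes (2.59%). These were Ddit3, with a change of -0.33 (SE 0.113), and Dnajb9, with 0.22 (SE 0.0941), both at a limma adjusted p of 1. Ddit3 measured 5.54, 5.72 and 5.499 in WT 4 TAM, below the WT 4 ctrl range of 5.74 to 6.09 (median 5.91). Slc7a5 measured 6.18, 6.19 and 6.31 in WT 4 TAM against 6.14 to 6.29 in WT 4 ctrl, and Vldlr 10.22, 10.11 and 10.08 against 10.13 to 10.36. The chaperones changed by -0.10 to 0.22, with a median of 0.05.

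MerCreMer and wild-type mice after control injections were compared next, since the transgene is present without tamoxifen. The limma fit called 0 of 38 members, against 0.676% of all genes tested (77 genes), and 4 (10.5%) had an unadjusted p under 0.05, against 1694 of all genes (14.9%). The atrial markers Myl7 and Myl4 were at 3.20 and 2.59 here, neither called (limma adjusted p = 0.119 and 0.0994), and their part in the member values was not tested. The mean log2 level of 54 unnamed probe sets also split these groups. It was 5.669, 5.793 and 5.715 in MCM 4 ctrl and 5.525 to 5.616 in WT 4 ctrl. Their first component score overlapped, with -0.123, 0.356 and 0.158 against -0.297 to -0.107. The genotype differences below thus come with a difference in this mean level, and what these probe sets mark was not tested. Ern1 measured 6.17, 6.22 and 6.34 in MCM 4 ctrl against 5.88 to 5.99 (median 5.92) in WT 4 ctrl, groups that did not overlap, with a difference of 0.30 (SE 0.0753, limma adjusted p = 0.073). Shmt2 was higher by 0.25 (SE 0.0633, limma adjusted p = 0.0734), again without overlap. Weighting arrays by the variance of their own group called both (limma adjusted p = 0.0143 and 0.0154), as did array weights (0.00256 and 0.0069), and Ern1 was also called with only the arrays compared (limma adjusted p = 0.0289). Eif4ebp1 differed by 0.26 and was called with only the arrays compared and with array weights. Canx was -0.18 and Cth 0.31, both with an unadjusted p under 0.05 in the fit to all arrays, and Cth was called with array weights.

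MerCreMer mice after 4 and after 1 control injections differed in 0 of 38 members, against 0% of all genes tested, and 0 members had an unadjusted p under 0.05, against 375 of all genes (3.29%). The largest difference among them was that of Asns, 0.42, with values of 5.28, 5.50 and 5.26 in MCM 1 ctrl and 5.28, 6.01 and 6.02 in MCM 4 ctrl.

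Whether the effect of 4 tamoxifen injections differed between genotypes was tested as an interaction, which uses the MCM 4 arrays of the main comparison again. The limma fit called 5 of 38 members (13.2%), against 7.98% of all genes tested. The difference, MerCreMer effect minus wild-type effect, was 1.13 for Slc7a5 (SE 0.265, limma adjusted p = 0.0145), 0.46 for Atf5 (SE 0.134, limma adjusted p = 0.0412) and -0.37 for Shmt2 (SE 0.0963, limma adjusted p = 0.0253). It was -0.98 for Cth (SE 0.221, limma adjusted p = 0.0117) and -1.09 for Vldlr (SE 0.189, limma adjusted p = 0.00188). The own effects behind these were 1.11 and -0.02 for Slc7a5, 0.38 and -0.09 for Atf5, -0.25 and 0.12 for Shmt2, -0.83 and 0.14 for Cth, and -1.18 and -0.09 for Vldlr, in MerCreMer and wild-type mice in turn. For Atf4 the difference was 0.57 (limma adjusted p = 0.106), for Aldh18a1 0.56 (0.185) and for Ern1 -0.38 (0.0506), none of them called.

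The calls of this interaction differed in how they held when arrays were left out. Slc7a5, Cth and Vldlr were called with each array left out in turn. Atf5 was not called without MCM 4 TAM replicate 1 (0.36), without any 1 of the 3 MCM 4 ctrl arrays (0.46 to 0.47), without any 1 of WT 4 ctrl replicates 3 to 6 (0.43 to 0.47) or without WT 4 TAM replicate 1 or 2 (0.40 and 0.46). Shmt2 was not called without MCM 4 ctrl replicate 2 (-0.32) or 3 (-0.36) or WT 4 TAM replicate 3 (-0.34). Without MCM 4 TAM replicate 3, Gpt2 (1.22) and Ddit3 (0.67) were called in addition. These 2 differences combine a rise in MerCreMer mice with lower values in wild-type mice after tamoxifen. In WT 4 ctrl and WT 4 TAM in turn the mean was 7.30 and 7.03 for Gpt2 and 5.91 and 5.59 for Ddit3. Neither wild-type change was called. Of the chaperones 0 was called with all arrays, with differences from -0.10 to 0.45 and a median of 0.23, and Creld2 (0.77) was called without MCM 4 TAM replicate 2. The number of members called ran from 3 without MCM 4 ctrl replicate 2 or 3 to 10 without MCM 4 TAM replicate 2, and it was 0 with female arrays only.

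Whether 4 days of tamoxifen differed from 1 day in MerCreMer mice was tested in the same way, again with the MCM 4 arrays of the main comparison. The limma fit called 3 of 38 members (7.89%), against 5.78% of all genes tested. The effect of 4 days minus that of 1 day was 0.98 for Slc7a5 (SE 0.283, limma adjusted p = 0.0479), -1.11 for Cth (SE 0.236, limma adjusted p = 0.00979) and -1.16 for Vldlr (SE 0.201, limma adjusted p = 0.0022). The own effects at 1 day were 0.12, 0.28 and -0.02. Cth and Vldlr were called with each array left out. Slc7a5 was not called without any 1 of the arrays of MCM 1 ctrl, MCM 1 TAM or MCM 4 ctrl, where its difference lay between 0.91 and 1.09. Atf4 differed by 0.63 (limma adjusted p = 0.101), and Gpt2 by 0.44, which became 0.93 and was called without MCM 4 TAM replicate 3. The number called was 6 without MCM 4 TAM replicate 2, and 0 with only the arrays compared and with female arrays only.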

How the data were processed

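Left ventricle RNA was measured on 21 Affymetrix arrays. The deposited log2 values were made by the authors with RMA (background correction, quantile normalisation and summary of probes), per the submitters' processing notes; the software version is not given in the sources used here. Quantile normalisation removes a shift shared by most genes. Array medians lay between 4.57 and 4.72, and precision is limited by how many arrays there are. Of 34760 probe sets the platform annotation gave 1 gene to 21640, several to 1321 and none to 11799, and 99.6% of the Entrez identifiers matched RefSeq GRCm38.p6.

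Genes with a log2 value of 5 or more on at least 3 arrays were tested. Group means (6) plus a term for sex were estimated from the 21 arrays together, using limma 3.58.1 in R 4.3.3 (lmFit and eBayes, 14 residual and 3.98 prior degrees of freedom), with p-values adjusted by Benjamini-Hochberg over all genes tested and a call at an adjusted p under 0.05. The fit was tested on simulated data in which each gene had the same spread in every group. That test does not cover the larger spread of MCM 4 TAM.

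The members, pathway lists and marker lists were chosen with earlier results of these data known. Any member could be named, and from each other pathway list up to 4 called genes with the smallest adjusted p. Alternatives were no sex covariate, the replicate number as a block, only the arrays compared, weights by group or by array, a second quantile normalisation, no filter or a floor of 6, the mean of probe sets, female arrays only, a trended robust prior, each array left out, and, chosen after seeing the data, a score over 54 unnamed probe sets as a covariate. Promoter windows came from a RefSeq table, with elements matched letter by letter.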

Additional observations from a re-analysis of the deposited data

Results flagged for a closer look

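The tamoxifen effects of 5 members differed between genotypes and those of 3 between 4 and 1 days of injection, by the limma interaction tests. MerCreMer minus wild type was 0.46 for Atf5, -0.37 for Shmt2, 1.13 for Slc7a5, -0.98 for Cth and -1.09 for Vldlr. The difference of 4 days minus 1 day was 0.98 for Slc7a5, -1.11 for Cth and -1.16 for Vldlr. Both tests use the MCM 4 TAM and MCM 4 ctrl arrays, so they are not independent of each other or of the main comparison.

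In the group of 6 WT 4 ctrl arrays, 2 of the 38 members had a single array far from the rest. Pdia4 was lowest on replicate 6, at 7.38, and Pck2 was highest on replicate 1, at 6.42. Chance alone marks about 1 in 20 such groups.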

How the results depend on the processing

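Counts of members called after 4 tamoxifen injections in MerCreMer mice (7 of 38, 4 higher and 3 lower) were 4 with group variance weights (2 higher), 4 with female arrays only (1 higher), 5 with array weights (2 higher), and 0 with only the arrays compared (0 higher, 0 lower). They were 6 with the replicate number as a block, which ended the call of Shmt2, and 8 with no filter, where Psat1 was added. With single arrays left out they ran from 5 to 17, from 3 to 13 higher and from 2 to 4 lower. Of all genes 2654 were called in this comparison, against 18 with only the arrays compared, 1655 with the replicate block, 1495 in females alone, 1011 under group variance weights and 1490 under array weights, and 1648 to 3846 with single arrays left out. MerCreMer against wild type after control injections called 0 members, 2 with group variance weights, 4 with array weights and 2 with only the arrays compared. The interaction with genotype called 5, and 0 with the replicate block, 2 with group variance weights, 3 with no filter, 0 with female arrays only, 3 with only the arrays compared, and 3 to 10 with single arrays left out. The interaction with days called 3, and 1 with the replicate block, 0 with female arrays only, 0 with only the arrays compared, and 2 to 6 with single arrays left out. The samples share only a replicate number: over 5 pairs of groups the deviations of same-numbered arrays correlated at -0.24 to 0.36, and in 0 of the 5 were all 3 correlations over 0.1 (0.11, -0.04 and 0.05 for MCM 4 TAM with MCM 4 ctrl). The comparisons of 1 day of tamoxifen, of wild-type mice and of control injection days called 0 members under every setting run. Fewer arrays are the construction of the settings that leave arrays out; otherwise the cause was not tested.

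Median changes ran, with single arrays left out, from 0.00362 to 0.453 for chaperones, 0.0879 to 0.224 for stress response factors, -0.1 to 0.32 for amino acid genes and -0.0994 to 0.275 for sensors and XBP1. The sensors moved to 0.294 with female arrays only, and the factors to 0.0398 with array weights. Of members not called, these changed sign with array weights: Calr -0.0536, Pdia6 -0.0861, Sdf2l1 -0.0126, Trib3 -0.00962, Ppp1r15a -0.00251, Chac1 -0.0479, Asns -0.527, Phgdh -0.239 and Pck2 -0.00818. With a second quantile normalisation Canx (-0.0193), Sel1l (-0.000363) and Pck2 (-0.00328) did, and with female arrays only Chac1 (-0.135), Eif4ebp1 (0.113) and Asns (-0.0795). With single arrays left out, the changes of uncalled members that turned sign ran as follows: Hspa5 -0.0334 to 0.389, Calr -0.0981 to 0.401, Canx -0.0671 to 0.12, Pdia6 -0.13 to 0.613, Hyou1 -0.0927 to 0.484, Sdf2l1 -0.139 to 0.662, Manf -0.0073 to 0.58, Atf6 -0.0994 to 0.275, Herpud1 -0.556 to 0.00408, Ddit3 -0.00564 to 0.33, Trib3 -0.0307 to 0.0971, Chac1 -0.124 to 0.129, Eif4ebp1 -0.378 to 0.0582, Asns -0.375 to 0.45 and Phgdh -0.228 to 0.386. In all, of the settings other than left-out arrays, 131 of the values of called members kept their call and 46 lost it, with 0 changes of sign, and with arrays left out 122 kept and 31 lost it.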
